A study of Arabidopsis thaliana with 27 samples.

Results

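The small, 40S subunit of the cytosolic ribosome is built from an RNA and a set of proteins, and in Arabidopsis nearly all of these proteins are encoded by several paralogous genes. The 60 genes described here, of 33977 in the count tables, were taken by locus identifier from a list of cytosolic small subunit proteins. They fall into 25 protein families, of which 13 have 2 listed paralogs, 11 have 3, and RACK1 has 1. The reference annotation named 49 of the 60 as cytosolic small ribosomal subunit genes, and the others carried other ribosomal protein names or general ones such as S10 domain protein, OB-fold protein or WD40 repeat protein (RACK1). RNA-seq counts came from 27 plants in 9 groups of 3, all in the Col-0 background. Floral stem at 6 weeks and root at 10 days, the latter on 0.5 MS medium, were taken from WT, Epi 8 and Epi 24. Rosette leaves of WT, Epi 8 and Epi 10 were labelled as bolting. The study's RNA methods give 4 weeks for WT and Epi 8 leaves and do not name Epi 10 leaves. The Epi lines are F3 families from WT mothers crossed with an msh1 T-DNA mutant. By the study's methods, F2 plants were genotyped for the T-DNA, and those written as MSH1 (not msh1) were selfed to give these families. MSH1 is a nuclear-encoded protein of plastids and mitochondria. Epi 8 and Epi 24 come from 1 cross and Epi 10 from another, so each line stands for 1 family and not for the cross in general.

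As background, the 40S subunit binds the mRNA and the initiator tRNA, scans for the start codon and holds the decoding centre, while the 60S subunit forms peptide bonds. Ribosomal protein genes are among the most strongly transcribed genes of growing plant tissue, and many of their promoters carry telo boxes and site II elements, short motifs also found upstream of cell cycle genes. The kinase TOR, acting through the S6 kinases, phosphorylates the 40S protein S6 and links ribosome production to nutrients and growth.

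Gene counts totalled 18465252 to 21219383 per floral stem library, 18524351 to 20041205 per root library and 48098795 to 90808615 per leaf library. The counting error of a gene depends on its own count and not on the total alone. Some members, such as AT5G18380 and AT5G59240, had more counts in every root plant than in any leaf plant, and others did not. Organ, age, medium and depth changed together and cannot be told apart. Levels are given as CPM, which are counts scaled to the product of the library total and its TMM factor. These factors were 1.21 to 1.26 in root, 0.843 to 0.903 in leaf and 0.834 to 1.02 in floral stem. Marker genes followed the organ labels. The 4 root genes summed to 119 to 239 CPM in root and were near 0 elsewhere. The 3 photosynthesis genes summed to 85.4 to 207 CPM in root against 14128 or more in leaf and floral stem. In floral stem, 4 secondary wall genes (CESA4, CESA7, CESA8 and LAC4) ranged over 1743, 2978 and 8011 CPM in WT plants 1, 2 and 3, so the WT stems differed among themselves. The 4 floral organ genes summed to at most 5.9 CPM in any library.

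The letters AAACCCTA (telo box), TGGGCC and TGGGCT (site II) were searched on both strands in the 250 bases before each gene's annotated start, with overlaps counted. A telo box was found in 11 of 60 members (18.3%, against 4.49% of 27443 protein-coding genes), TGGGCC in 30 (50%, against 13.7%) and TGGGCT in 25 (41.7%, against 12.3%). Both kinds of motif were present in 8 members (13.3%, against 1.36%), and 19 members held none of the letters (31.7%, against 77.7%). The 4 pairs of paralogs to which the results return are printed here as the 150 bases before the gene start in TAIR10.1 (RefSeq), 5′ to 3′ on the gene's strand, with motif letters on either strand in capitals. The S23, S8 and S11 pairs were chosen, after their values were seen, because they hold members with the largest differences between organs, and the S27 pair because 1 of its genes had the lowest value among those called in Epi 8 leaf.
AT5G02960 (S23): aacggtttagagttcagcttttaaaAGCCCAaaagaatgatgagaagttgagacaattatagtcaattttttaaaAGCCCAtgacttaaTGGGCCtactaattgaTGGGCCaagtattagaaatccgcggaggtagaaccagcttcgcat
AT3G09680 (S23): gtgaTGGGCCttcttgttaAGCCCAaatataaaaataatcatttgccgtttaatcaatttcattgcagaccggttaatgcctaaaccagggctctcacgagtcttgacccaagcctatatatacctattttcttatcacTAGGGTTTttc
AT5G20290 (S8): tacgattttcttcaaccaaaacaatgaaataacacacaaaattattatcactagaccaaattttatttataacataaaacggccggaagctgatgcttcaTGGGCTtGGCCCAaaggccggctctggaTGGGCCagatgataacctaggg
AT5G59240 (S8): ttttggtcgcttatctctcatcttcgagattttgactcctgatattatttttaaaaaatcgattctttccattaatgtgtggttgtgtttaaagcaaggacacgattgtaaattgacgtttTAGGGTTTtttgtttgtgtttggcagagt
AT5G23740 (S11): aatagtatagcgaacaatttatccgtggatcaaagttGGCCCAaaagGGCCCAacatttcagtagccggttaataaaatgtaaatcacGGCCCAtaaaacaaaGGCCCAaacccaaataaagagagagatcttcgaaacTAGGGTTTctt
AT4G30800 (S11): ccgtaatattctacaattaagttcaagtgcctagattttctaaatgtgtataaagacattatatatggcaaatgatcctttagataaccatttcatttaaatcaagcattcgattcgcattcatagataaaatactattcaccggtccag
AT5G47930 (S27): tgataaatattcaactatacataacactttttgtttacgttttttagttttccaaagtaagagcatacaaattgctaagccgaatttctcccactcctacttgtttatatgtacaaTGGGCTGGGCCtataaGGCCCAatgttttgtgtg
AT3G61110 (S27): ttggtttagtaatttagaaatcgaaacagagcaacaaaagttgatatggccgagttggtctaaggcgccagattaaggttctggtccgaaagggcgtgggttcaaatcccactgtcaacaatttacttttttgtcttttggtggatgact
The S23 windows are chr5:694516-694665 and chr3:2970372-2970521, both on the minus strand. The S8 windows are chr5:6853107-6853256 and chr5:23903768-23903917, both minus. The S11 windows are chr5:8009437-8009586 (minus) and chr4:15000810-15000959 (plus), and the S27 windows are chr5:19407450-19407599 (minus) and chr3:22611371-22611520 (plus), the last of which holds an annotated leucine tRNA gene. AT4G30800 and AT3G61110 show no match in these windows, whereas AT3G09680, the scarcest gene of all 60, carries a telo box and both site II letters. A match is only a run of letters, and its use by a factor was not measured.

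In WT, levels per gene length were these TMM-scaled CPM divided by exon kilobases. They spread over a ratio of 7251 between the highest and the lowest of the 60 genes in floral stem, 110 in root and 1208 in leaf. When the listed paralogs of a family were summed, the 24 families with more than 1 paralog lay much closer together. In WT root they ran from 533 (S5) to 1172 (S18), with a median of 823 CPM per kb. In WT floral stem the range was 189 (S12) to 503 (S25), and in WT leaf 204 (S16) to 591 (S3). The highest family sum was 2.66 times the lowest in stem, 2.20 times in root and 2.90 times in leaf. A family sum cannot be lower than its highest paralog, so summing by itself narrows the range. The ratios of single genes rest on the lowest gene, AT3G09680, which had 0, 2 and 0 counts in WT floral stem. The 2 kinds of ratio are therefore not evidence of an even supply of families. Levels of transcripts say nothing of protein amounts, which were not measured.

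**Figure D1:**
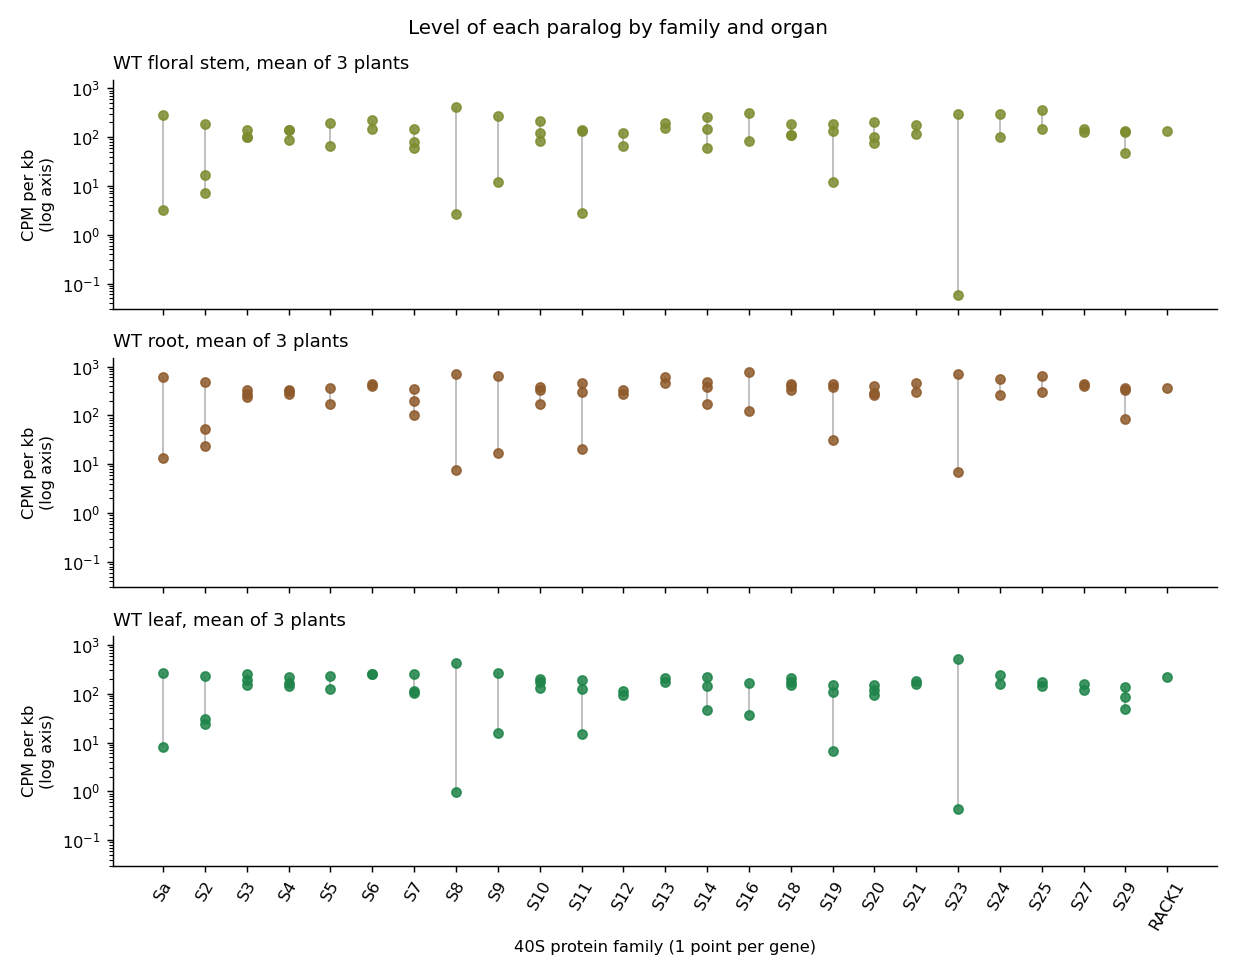
Mean level of each of the 60 genes in WT floral stem, root and leaf (CPM per kb, log axis; 3 plants per organ), arranged by protein family. Single paralogs of Sa, S2, S8, S9, S11, S19 and S23 lie far below their partners, and AT3G09680 (S23) is the lowest gene in each organ.

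Proteins around the decoding centre and the path of the mRNA include S2, S3, S5, S9, S14 and S23. S3 lines the mRNA entry channel, and its 3 paralogs each held 24.8 to 44.5% of the family in every library. AT2G31610 led in WT root, with 342, 312 and 335 CPM per kb in plants 1, 2 and 3. S23 sits in the decoding centre, and 1 gene supplied it almost alone. AT5G02960 measured 704, 733 and 717 CPM per kb in WT root, 421, 266 and 205 in WT floral stem and 537, 524 and 501 in WT leaf, and made up 98.7 to 100% of the S23 level in every library. Its paralog AT3G09680 (chr3:2969045-2970371, minus strand), whose protein is 95.8% identical and whose end overlaps AT3G09670 on the opposite strand by 14 bp, had 89, 91 and 144 counts in WT root, 30, 15 and 15 in WT leaf and 0, 2 and 0 in WT floral stem. Root was the organ in which this gene was seen best. Per library size, WT root was 119 times WT floral stem (95% counting interval 32.8 to 989) and 15.7 times WT leaf (11.9 to 20.999), intervals that cover counting error only.

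S8, a protein of the subunit body, had the same arrangement. AT5G20290 held 97.95 to 99.8% of its family in every library, and AT5G59240 (chr5:23902462-23903767, minus strand) measured 7.73, 7.58 and 7.54 CPM per kb in WT root, 4.94, 2.53 and 0.677 in WT floral stem and 1.17, 0.812 and 0.930 in WT leaf. The root plants were close together and above both other organs, whereas the stem plants were spread and plant 3 fell below the WT leaf plants. In Sa, known in animals as the laminin receptor precursor, AT1G72370 held 96.6 to 99.6% of its family, with a paralog protein of only 56.0% identity. In S9, AT5G15200 held 91.9 to 98.2%, and in S2, AT2G41840 held 80.8 to 91.7%. With S23, these 5 families were the only ones of 24 in which a single listed gene stayed over 80% in all 27 libraries. By level per kb, the same paralog was highest in every library in 12 families and changed between libraries in the other 12. The constant leaders, beside those of these 5 families, were AT3G11940 (S5), AT5G16130 (S7), AT5G41520 (S10), AT5G18380 (S16), AT5G62300 (S20), AT5G28060 (S24) and AT4G39200 (S25).

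The leading paralog depended on the organ in several families. For S13, AT4G00100 (RPS13A) held 54.8 to 61.0% of the family in floral stem. Its share was 56.2 to 61.2% in root but 39.7 to 45.9% in leaf, where AT3G60770 led. For S6, the target of S6 kinase, AT4G31700 held 31.2 to 43.2% in floral stem and 51.8 to 56.1% in root, and in leaf 43.8 to 52.9%. These are ranges over all 9 plants of an organ, lines included. For S13 leaf stood apart from both other organs, and for S6 floral stem did. For S24, AT3G04920 held 37.5 to 43.3% in leaf, 31.5 to 34.5% in root and 23.7 to 28.1% in floral stem, so no organ overlapped another. AT2G21580 (S25) gave the same order, with 36.4 to 47.6%, 31.5 to 36.05% and 25.2 to 30.2%. The S11 gene AT4G30800 was a minor paralog everywhere, at 3.77 to 5.70% in leaf, 2.16 to 3.19% in root and 0.335 to 1.79% in floral stem. Within S11 the main genes exchanged places, because AT5G23740 held 48.5 to 55.7% in floral stem and 34.4 to 38.7% in leaf, and AT3G48930 held 43.7 to 49.95% and 56.7 to 61.9%. Root was the distinct organ for AT2G36160 (S14), at 40.4 to 50.2% against 30.5 to 35.6% in floral stem and 33.3 to 36.9% in leaf, and for AT5G58420 (S4), at 34.4 to 38.6% against 21.9 to 27.8% and 24.9 to 28.1%.

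Counted over all families, shares of at least 1 paralog did not overlap between some pair of organs in 23 of 24 families and 51 of 59 paralogs. Root and floral stem were apart in 18 families, leaf and root in 19 and leaf and floral stem in 13. In the 13 families with 2 listed paralogs the shares mirror each other, so both paralogs count together. No such count was made for other gene families, so these numbers cannot be read as particular to the 40S genes. In levels, not shares, WT root plants lay wholly above WT floral stem plants for 31.3% of all genes tested and wholly below for 34.6%. Shares were computed among the listed paralogs only, and S27 and RACK1 have further genes that are taken up with the other 40S genes. S2 has at least 3 further genes, AT1G58684, AT1G58983 and AT1G59359, which share windows with AT1G58380 and were listed at 0 in all 27 libraries, so S2 shares, that of AT2G41840 included, leave out what reads from these copies would add. In 46 within-family pairs the proteins were 56.0 to 100% identical, with a median of 94.6% and 7 identical pairs, but the coding DNA was 68.2 to 98.2% identical, and only uniquely aligned reads were counted. Just 7 members shared any 100-base window with another gene, and 2 shared over 5% of their windows (AT1G58380 of S2, 11.3%, and AT5G15520 of S19, 7.94%), so the counts of these 2 are less certain. Parts of 14 members overlap another gene, and no strand setting of the counting is given in the sources used here.

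**Figure D2:**
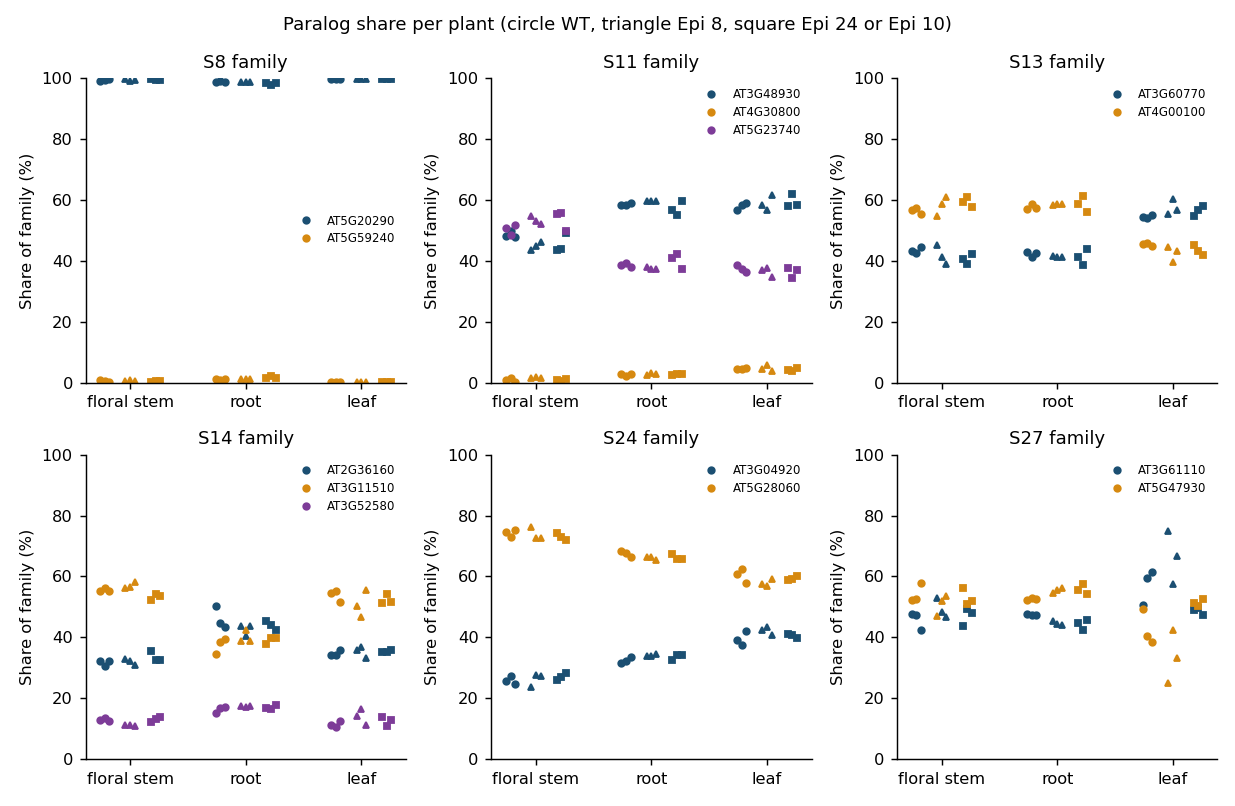
Share of each listed paralog in its family's summed level (% of CPM per kb) in the 27 plants, grouped by organ, for S8, S11, S13, S14, S24 and S27. In S13 the leaf plants cross below 50% for AT4G00100, in S24 the 3 organs form separate steps, and in S27 the highest share of AT3G61110, 74.9%, is that of an Epi 8 leaf plant, although the leaf plants of the lines overlap.

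In 8 families the highest paralog was over 5 times the lowest when averaged over the libraries, with ratios of 194 in S23, 118 in S8, 47.0 in Sa, 25.02 in S9, 20.4 in S11, 16.5 in S2, 14.3 in S19 and 5.04 in S16. Of the 8 lowest paralogs 2 had any of the 3 motifs in the 250 bases before the start (AT3G09680 and AT5G59240, printed above), and of the 8 highest paralogs 7 had one. Among all members, the 41 with a motif had median WT levels of 139 CPM per kb in floral stem, 349 in root and 159 in leaf, and the 19 without had 83.9, 295 and 128. These are descriptions, with no test.

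WT root against WT floral stem and WT leaf asked how the members differ between organs. The 60 genes took 2.47% ± 0.0700 (SD, n = 3) of all gene counts in WT root, 0.771% ± 0.345 in WT floral stem and 0.808% ± 0.0704 in WT leaf. The WT root plants took 2.42 to 2.55%, and no leaf or floral stem plant of any line passed 1.22%. A gene was called at an adjusted p (edgeR quasi-likelihood test, Benjamini-Hochberg over all genes tested, FDR) under 0.05 and a log2 fold change of at least 0.5. In root, 59 of 60 members rose against floral stem, where 28.7% of all 22442 genes tested did, and the median log2 fold change was 1.36 (2.57-fold) against -0.08 for all genes. The exception was AT5G39850 (S9), at 0.54 with an FDR of 0.0937. In leaf, 50 of 60 members fell against root, where 35.9% of all genes did, and neither edgeR nor DESeq2 called any higher. Their median was -1.07, which is 2.10-fold lower.

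The sizes of the organ differences varied among members. Against floral stem, the root values of AT4G30800 (S11) were 22.5, 17.8 and 21.7 CPM per kb against 3.97, 3.90 and 0.597, a log2 fold change of 2.86 (SE 0.405, FDR 1.86e-06). AT2G32060 (S12) followed with 2.09, AT3G04770 (Sa) with 2.07 and AT3G47370 (S20) with 1.98 on the log2 scale. All these genes had root plants that lay wholly above the stem plants. In leaf against root, the largest falls after AT3G09680 were those of AT5G59240 (S8, -2.97), AT5G15520 (S19, -2.27), AT5G18380 (S16, -2.18) and AT4G33865 (S29, -2.07). S19 and S16 lie in the head of the subunit, and S29 is a small zinc-binding protein. The 10 members not called in leaf against root were AT3G57490 (S2), AT3G53870 (S3), AT5G07090 (S4), AT2G37270 (S5), AT1G48830 and AT5G16130 (S7), AT5G39850 (S9), AT4G25740 (S10), AT4G30800 (S11) and AT5G02960 (S23).

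Leaf and floral stem were nearer to each other. Of 60 members 20 rose in WT leaf (29.1% of all genes did) and 6 fell (31.2% did), with a median log2 fold change of 0.28. With both directions together, fewer of the members were called than of all genes, because few of them fell. AT4G30800 (2.39), AT3G57490 (S2, 1.74), AT3G04770 (Sa, 1.302) and AT2G37270 (S5, 0.95) rose most after AT3G09680. For AT3G09680 the count ratio was 7.62 with a counting interval of 2.02 to 64.3, on 60 counts against 2. The genes that fell were AT5G59240 (-1.48), AT2G09990 (S16, -1.20), AT4G39200 (S25, -1.04), AT5G18380 (S16, -0.92), AT5G15520 (S19, -0.86) and AT4G33865 (S29, -0.64). In no family did a rise and a fall occur together in the same organ comparison. The number called fell to 15 when only the 6 WT libraries were fitted (the share of all genes in that fit is not given here). The summed percentage was 1.05 times as high in leaf as in floral stem but 0.875 times without WT stem plant 3, so no order of these organs can be read from it. The ratio of leaf to root was 0.328 in raw percentages and 0.477 after TMM scaling, which raises leaf and stem against root, and both are below 1.

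**Figure D3:**
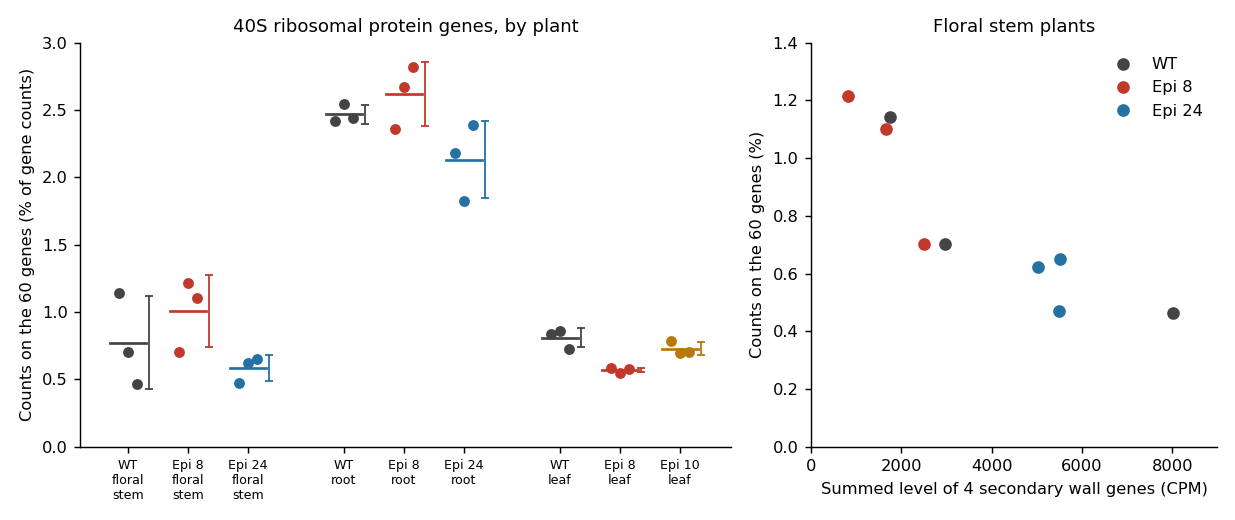
Left, percentage of gene counts on the 60 genes in each plant, with the mean and SD of each group of 3. Right, the 9 floral stem plants by the summed level of 4 secondary wall genes (CPM). The root plants lie at 1.82% or more and all others at 1.22% or less, the 3 Epi 8 leaf plants lie below all other leaf plants, and the 3 stem plants with the lowest wall gene levels have the highest 40S percentages.

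In leaf, the 40S genes were lower in Epi 8 than in WT. The members took 0.569% ± 0.0180 of counts in Epi 8 leaf (0.550 to 0.585%) and 0.808% ± 0.0704 in WT leaf (0.728 to 0.859%), and the plants did not overlap. All 60 members had a negative log2 fold change, with a median of -0.57 (1.49-fold lower) against 0.01 for all genes. 25 of 60 members were called lower by edgeR, where 0.773% of all 20052 genes tested were, and neither edgeR nor DESeq2 called any higher. DESeq2 called 38 lower, where it called 2.25% of all genes lower, and 55 members had an unadjusted edgeR p under 0.05, where 20.3% of all genes did. All 3 Epi 8 plants lay below all 3 WT plants for 56 members, where 13% of all genes did. The exceptions were AT2G09990 (S16), AT2G31610 (S3), AT3G44010 (S29) and AT5G62300 (S20). In a bulk sample, fewer cells rich in these transcripts and fewer transcripts per cell cannot be told apart.

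The number of calls rested on single plants although the direction did not. It was 0 without Epi 8 leaf plant 1, 2 without plant 2 and 22 without plant 3, and 2, 0 and 28 without WT leaf plants 1, 2 and 3, while all 60 members were negative in each of these fits and the median ranged from -0.68 to -0.53. With only the 6 libraries compared, 5 members were called. The shares of all genes called in these alternative fits are not given here. A list of 6 genes of dividing cells (cyclins, CDKs and KNOLLE) summed to 29.95, 26.5 and 23.3 CPM in WT leaf plants 1, 2 and 3 and to 23.1, 22.1 and 13.96 in Epi 8 leaf. Their median log2 fold change was -0.49, with 3 of 6 at an unadjusted p under 0.05 and none called by edgeR (smallest FDR 0.190) or DESeq2. The 4 secondary wall genes summed to 46.4, 37.1 and 35.3 CPM in WT leaf and 34.0, 32.2 and 27.9 in Epi 8 leaf, with a median log2 fold change of -0.34, 1 of 4 at an unadjusted p under 0.05 and none called by edgeR or DESeq2. The part of either list in the fall of the 40S genes was not tested.

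Among members called lower, the largest fall was that of AT5G47930 (chr5:19406080-19407449, minus strand), 1 of the listed S27 genes, which encode a small zinc-binding protein. It measured 149, 126 and 83.9 CPM per kb in WT leaf and 34.3, 61.8 and 54.1 in Epi 8 leaf, a log2 fold change of -1.26 (SE 0.234, FDR 0.0429). Its paralog AT3G61110 measured 152, 187 and 135 in WT and 102, 83.8 and 109 in Epi 8, at -0.69 with an FDR of 0.0558. Both genes were lower in all Epi 8 plants, and only the first passed the test. In root the same gene stood at 436, 441 and 432 CPM per kb in WT and 443, 477 and 529 in Epi 8, with no such fall. AT2G21580 (S25, at the head of the subunit) measured 134, 167 and 138 in WT leaf and 71.9, 57.8 and 90.9 in Epi 8 leaf, at -0.998 (SE 0.151, FDR 0.0277).

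The S29 family was split. AT3G43980 measured 50.05, 53.0 and 44.1 CPM per kb in WT leaf and 25.6, 21.6 and 26.9 in Epi 8 leaf (log2 fold change -0.99, SE 0.113, FDR 0.0134), and AT4G33865 measured 83.8, 88.9 and 84.2 against 47.8, 39.9 and 50.4 (-0.90, SE 0.101, FDR 0.0134). AT3G44010, the most abundant of the 3, measured 158, 121 and 140 against 132, 128 and 115 (-0.16, FDR 0.414), so its plants overlapped. A like split was seen in S20, a head protein, in which AT3G45030 was called at -0.81 (FDR 0.02755) and AT5G62300 stood at -0.16 (FDR 0.490). Whether paralogs differed from one another in their response was not tested. For S21, AT3G53890 fell from 187, 190 and 173 to 95.8, 86.8 and 120 CPM per kb, a log2 fold change of -0.87 (SE 0.115, FDR 0.0185).

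The other called members lay between -0.78 and -0.54 on the log2 scale. They were AT5G15200 (S9, -0.78), AT2G32060 and AT1G15930 (S12, -0.76 and -0.69), AT4G25740 and AT5G52650 (S10, -0.73 and -0.71), AT5G28060 and AT3G04920 (S24, -0.73 and -0.57), and AT5G61170 (S19, -0.70). They also included AT5G23740 and AT3G48930 (S11, -0.69 and -0.63), AT3G02560, AT5G16130 and AT1G48830 (S7, -0.68, -0.65 and -0.57), AT2G37270 (S5, -0.67) and AT2G36160 (S14, -0.66). The last were AT4G39200 (S25, -0.63), AT5G20290 (S8, -0.59), AT5G02960 (S23, -0.56) and AT1G34030 (S18, -0.54). All 3 listed genes of S7, a protein needed for maturation of the small subunit RNA in yeast, were called. None of the listed genes of S2, S3, S4, S6, S13, S16 and Sa, nor RACK1, was called. For the dominant genes of S23 and S8 the plants were 537, 524 and 501 in WT against 346, 331 and 385 in Epi 8 (AT5G02960), and 413, 490 and 355 against 299, 275 and 264 (AT5G20290). Both pairs of groups were clear of each other.

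Members that did not pass included the 2 S6 genes and RACK1. S6 gene AT4G31700 measured 252, 276 and 235 CPM per kb in WT leaf and 192, 190 and 168 in Epi 8 leaf (log2 fold change -0.48, FDR 0.0519), and AT5G10360 measured 278, 245 and 248 against 215, 208 and 215 (-0.28, FDR 0.172). RACK1 (AT1G18080), a scaffold for signalling proteins on the ribosome, measured 237, 235 and 179 against 149, 133 and 165 (-0.55, FDR 0.0882). The plants of all these genes were apart. AT3G09680 had 5, 6 and 0 counts in Epi 8 leaf and 30, 15 and 15 in WT leaf, a ratio per library size of 0.229 (counting interval 0.109 to 0.440, FDR 0.192 by edgeR). Of the 41 members with an upstream motif 21 were called, and of the 19 without 4 were, but the medians of both were -0.57.

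Several members are known from mutants in which leaf shape or embryo growth is changed, among them RPS5A, RPS13A and PFL (an S18 gene, named for its pointed first leaves). RPS5A (AT3G11940) measured 259, 222 and 215 CPM per kb in WT leaf and 154, 134 and 182 in Epi 8 leaf (log2 fold change -0.57, FDR 0.0565). RPS13A (AT4G00100) measured 195, 183 and 149 against 123, 109 and 123 (-0.58, FDR 0.0568). PFL (AT1G22780) measured 175, 147 and 139 against 116, 103 and 99.4 (-0.54, FDR 0.0658). None of them passed, although the Epi 8 plants lay below the WT plants for each.

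**Figure D4:**
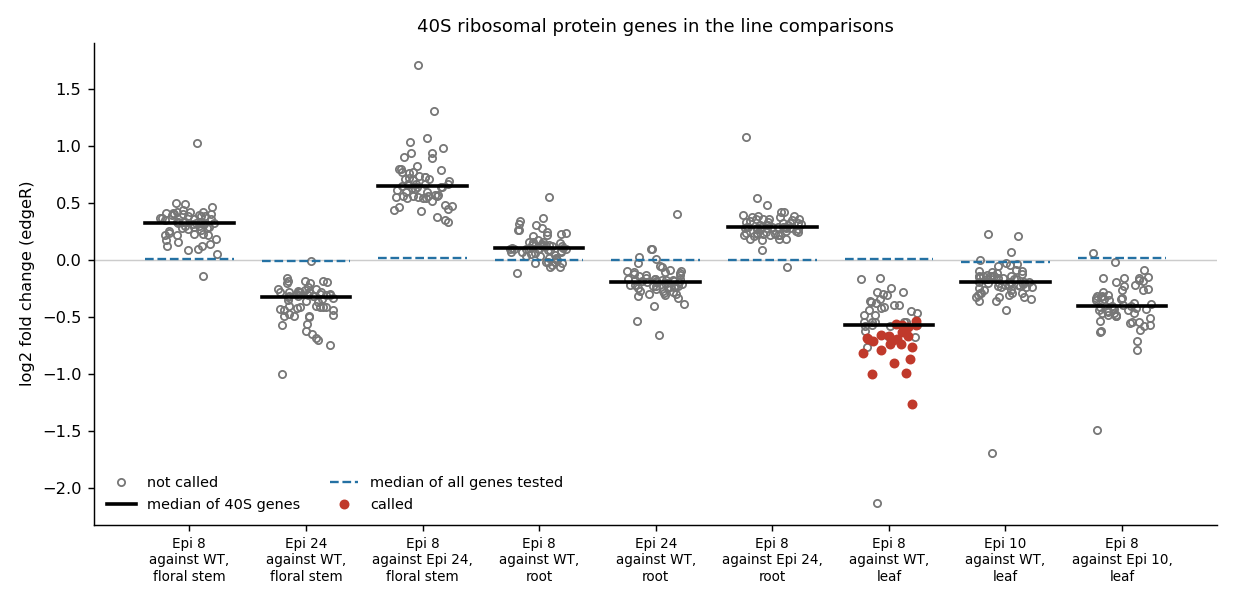
Log2 fold change of each member (points) in the 9 comparisons between lines, with the median of each as a bar and called members in red. Red points occur only in Epi 8 against WT leaf, where every member is below 0. The floral stem and root comparisons lie on 1 side of 0 for most members, without any call.

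Epi 10 leaf, from the other cross and compared with the same WT plants, lay between. Its plants took 0.727% ± 0.0491 of counts on the members (0.697 to 0.784%), which overlapped WT. Of the 60 members 56 had negative values, with a median of -0.19. edgeR called 0 (0% of all genes), DESeq2 called 0 (0.105% of all genes), and 11 had an unadjusted p under 0.05 (7.03% of all genes). All Epi 10 plants were below WT for 11 members, where 7.24% of all genes were. AT5G47930, the S27 gene that fell most in Epi 8, measured 154, 142 and 125 CPM per kb in Epi 10 leaf and had the highest value of the members, 0.23 (FDR 0.786). The lowest was AT3G09680, with 4, 13 and 1 counts in Epi 10 leaf (FDR 0.683).

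Compared directly, Epi 8 leaf was lower than Epi 10 leaf for 59 of 60 members, with a median of -0.40. edgeR called 0 members and 0% of all genes, DESeq2 called 12 lower (0.294% of all genes in either direction), and 43 members had an unadjusted p under 0.05 (7.08% of all genes). The plants of Epi 8 were all below those of Epi 10 for 45 members, where 6.98% of all genes were. AT5G47930 had the lowest value, -1.49, with the plants apart (FDR 0.307), and AT5G62300 (S20) the highest, 0.06. Without Epi 8 leaf plant 3, edgeR called 2 members (the share of all genes in that fit is not given here).

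**Figure D5:**
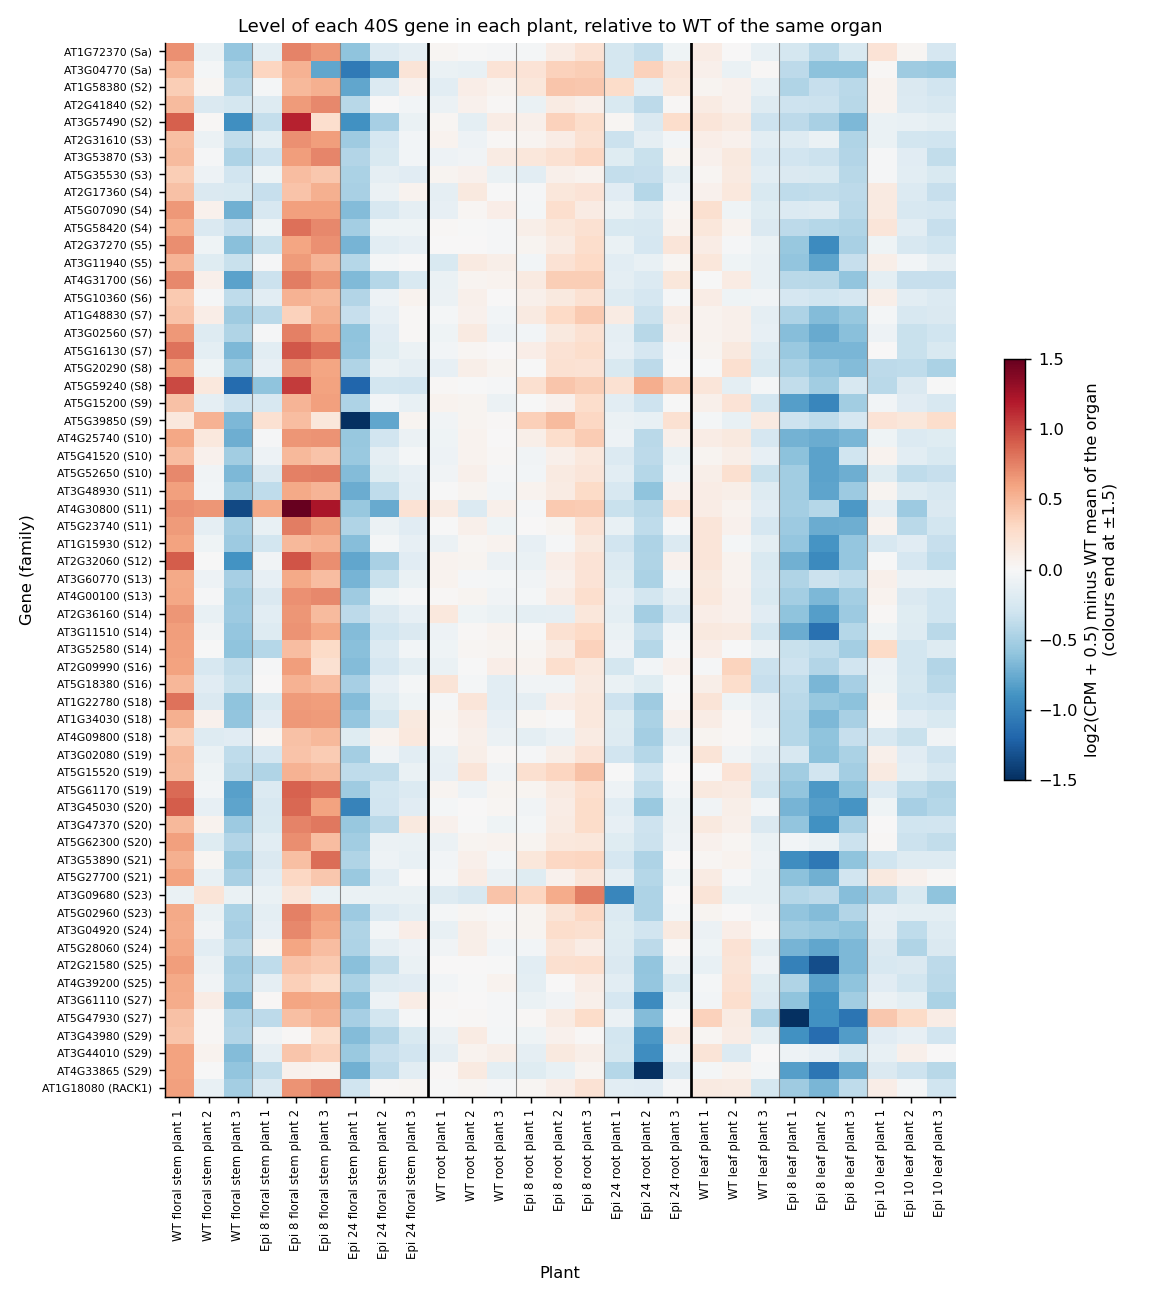
Heat map of log2(CPM + 0.5) of the 60 genes in the 27 plants, minus the mean of the 3 WT plants of the same organ, with colours ending at ±1.5. Epi 8 leaf plants are low for all 60 genes, and whole columns of the floral stem plants shift together, among them high WT plant 1 and low WT plant 3.

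In root the means of the Epi lines lay on opposite sides of WT, without any call. The members took 2.62% ± 0.237 of counts in Epi 8 root, 2.47% ± 0.0700 in WT root and 2.13% ± 0.287 in Epi 24 root, and the ranges of Epi 8 and Epi 24, 2.36 to 2.82% and 1.82 to 2.39%, overlapped slightly. The WT root plants, at 2.42 to 2.55%, lay within the Epi 8 range and above the Epi 24 range. Epi 8 root plant 1 was above the WT mean for 28 of 60 members, and Epi 24 root plant 3 for 27. For Epi 8 against WT, 51 of 60 members were positive, with a median of 0.10. edgeR called 0 (0% of all genes), DESeq2 called 0 (0.144%), and 3 had an unadjusted p under 0.05, where 5.6% of all genes did. All Epi 8 plants were above WT for 17 members, where 8.1% of all genes were. For Epi 24 against the same WT plants, 55 of 60 were negative, with a median of -0.19. Here edgeR called 0 (0%), DESeq2 called 0 (0.12%), 6 had an unadjusted p under 0.05 (6.91%), and the plants were all lower for 16 members (5.02%).

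Epi 8 root against Epi 24 root gave 59 of 60 positive values, with a median of 0.29. edgeR called 0 members (0.0192% of all genes), DESeq2 called 0 (0.702%), and 34 had an unadjusted p under 0.05 (11.4%). The Epi 8 plants were all above the Epi 24 plants for 32 members, where 9.45% of all genes were. The highest value was that of AT3G09680, with 138, 165 and 196 counts in Epi 8, 89, 91 and 144 in WT and 50, 69 and 104 in Epi 24, a log2 fold change of 1.08 between the Epi lines (SE 0.331, FDR 0.295). Its plants were apart between the Epi lines and overlapped between Epi 8 and WT. AT5G59240 (S8) behaved otherwise, with 9.03, 11.4 and 10.06 CPM per kb in Epi 24, 9.07, 10.4 and 10.01 in Epi 8 and 7.73, 7.58 and 7.54 in WT, and it was the member highest in Epi 24 against WT (0.40, FDR 0.742). AT4G33865 (S29) was the lowest there, with 265, 115 and 307 against 362, 391 and 324 (-0.65, FDR 0.673). Epi 24 root plant 2 was low for this gene, and it was below the WT mean for 58 of 60 members. The 4 secondary wall genes had values in the opposite order in root, at 131, 116 and 103 CPM in Epi 8 plants 1, 2 and 3, 156, 122 and 144 in WT and 150.1, 255 and 170.2 in Epi 24. Their median log2 fold change between the Epi lines was -0.68, with the plants apart, 4 of 4 at an unadjusted p under 0.05, 0 called by edgeR (smallest FDR 0.219) and 1 by DESeq2. Epi 24 root plant 2, the lowest root for the 40S percentage, had the highest wall gene level, and the part of this in the root comparisons was not tested.

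In floral stem the plants of a line differed widely. WT stem plants 1, 2 and 3 took 1.14, 0.703 and 0.465% of counts on the members, Epi 8 plants 0.703, 1.22 and 1.10%, and Epi 24 plants 0.472 to 0.649%. In the same plants the 4 secondary wall genes summed to 1743, 2978 and 8011 CPM in WT, 2503, 826.5 and 1653 in Epi 8, and 5492, 5018 and 5504 in Epi 24. The 3 stems with the lowest wall gene levels had the highest 40S percentages, and the stem with the highest had the lowest percentage. The part of this in the line comparisons was not tested. WT plant 1 was above the WT mean for 59 of 60 members and WT plant 3 below it for all 60. Epi 24 plant 1 was also below it for all 60, and Epi 8 plant 2 above it for all 60.

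For Epi 8 against WT floral stem, 58 of 59 members tested were positive, with a median of 0.32 that ranged from 0.11 to 0.69 when single plants were left out. edgeR called 0 (0.0255% of all genes), DESeq2 called 0 (1.9%), and 0 had an unadjusted p under 0.05, where 8.82% of all genes did. For Epi 24 against the same WT plants, all 59 were negative, with a median of -0.32, which was 0.02 without WT stem plant 1. edgeR and DESeq2 called 0 (0% and 0.112% of all genes), and 0 had an unadjusted p under 0.05 (6.11%). Epi 8 against Epi 24 gave 59 positive values of 59 and a median of 0.65, with 0 called by edgeR (0.0153%), 0 by DESeq2 (3.59%) and 20 at an unadjusted p under 0.05 (16.8%). The plants were apart for 12 members, where 12.1% of all genes had Epi 8 above Epi 24.

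The S11 gene AT4G30800 had the highest value in that comparison, with 3.63, 7.48 and 5.99 CPM per kb in Epi 8, 1.38, 1.15 and 2.74 in Epi 24 and 3.97, 3.90 and 0.597 in WT. Its log2 fold change was 1.72 between the Epi lines (SE 0.644, FDR 0.261) and 1.03 for Epi 8 against WT (FDR 0.687). WT plant 3 lay below all other stem plants for this gene. The lowest values were those of AT4G33865 (S29, -0.14) for Epi 8 against WT, AT5G59240 (S8, -0.998) for Epi 24 against WT, and AT4G09800 (S18, 0.34) between the Epi lines, and AT4G09800 was also the highest for Epi 24 against WT (-0.01). AT3G09680 did not pass the filter on low counts in floral stem, with 2 counts in 1 WT plant and in 1 Epi 8 plant and 0 in the other 7.

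Whether the Epi 8 difference itself depended on the organ was tested as an interaction over all 27 libraries. Leaf minus root was negative for all 60 members, with a median of -0.74. edgeR called 0 (0% of all genes, smallest member FDR 0.481), DESeq2 called 0 (0.16%), and 30 had an unadjusted p under 0.05, where 8.05% of all genes did. For 17 members all Epi 8 plants were above WT in root and below it in leaf, where 1.5% of all genes showed this, but the difference between the organs did not pass the test over all genes for any of them. Leaf minus floral stem was also negative for all 60, with a median of -0.89, 0 calls by edgeR (0.29% of all genes, smallest FDR 0.0968), 10 by DESeq2 (1.79%) and 48 at an unadjusted p under 0.05 (12.4%). The 0 calls by edgeR became 40 without WT floral stem plant 1 and 29 without Epi 8 floral stem plant 1. The shares of all genes called in these fits are not given here, so these counts cannot be read as particular to the members. AT5G47930 (S27) stood at -1.40 (FDR 0.481) for leaf minus root and -1.46 (FDR 0.0968) for leaf minus floral stem. The S29 gene AT3G44010 was nearest to 0 in both, at -0.19 and -0.30.

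Floral stem minus root gave smaller values. For Epi 8 the median was 0.19, with 0 members called by edgeR (0.316% of all genes), 0 by DESeq2 (1.63%) and 0 at an unadjusted p under 0.05 (10.5%). For Epi 24 the median was -0.14, with 0 calls by edgeR (0%), 0 by DESeq2 (0.481%) and 1 at an unadjusted p under 0.05 (8.76%). Both medians changed sign when single WT stem plants were left out, to -0.03 without WT plant 3 for Epi 8 and to 0.21 without WT plant 1 for Epi 24. The highest members were AT4G30800 (S11, 0.74) for Epi 8 and AT4G09800 (S18, 0.27) for Epi 24. AT3G09680, with few counts in floral stem, was the lowest in every interaction.

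The remaining 40S genes were treated as a separate list, of which 26 were tested in leaf. All 26 had an unadjusted edgeR p under 0.05 for Epi 8 against WT leaf (20.3% of all genes did), with a median of -0.46. By edgeR 6 were called lower (0.773% of all genes were), and DESeq2 called 9, where it called 2.25% of all genes lower. The 6 were AT1G48630 (RACK1, -0.89, FDR 0.0277), AT3G10610 (S17, -0.76), AT3G10090 and AT5G64140 (S28, -0.69 and -0.51), AT2G40590 (S26, -0.60) and AT5G59850 (S15a, -0.51). In WT root against floral stem 27 of 27 rose (28.7% of all genes did), with a median of 1.39. In leaf against root 20 of 27 fell (35.9% of all genes did). Of the 60S subunit genes, 36 of 99 tested were called lower by edgeR in Epi 8 leaf (0.773% of all genes were), with a median of -0.54. DESeq2 called 62. In root against floral stem 94 of 100 rose (28.7% of all genes did) and 1 fell. Calls of both lists without single plants are not given here, and those of the members in leaf ranged from 0 to 28. The corresponding median of the 60 members in leaf was -0.57.

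The 4 genes listed for the TOR pathway showed no call in Epi 8 leaf, and the activity of the pathway was not measured. Of TOR, RAPTOR1B, S6K1 and S6K2, which act upstream of S6 phosphorylation, none was called by edgeR or DESeq2, none had an unadjusted p under 0.05, and their log2 fold changes ran from 0.08 to 0.39. In WT root against floral stem only S6K2 was called (1.98). In WT leaf against floral stem 3 of the 4 were called higher and 1 lower (29.1% and 31.2% of all genes were). Leaf against root gave 2 higher and 1 lower (7337 and 8046 of 22442 genes were). The 4 genes summed to 289 to 365 CPM in leaf, 164 to 213 in root and 185 to 304 in floral stem. These CPM include the TMM scaling, which raises leaf and floral stem against root. The gap between leaf and root in these sums therefore depends on that scaling. The 6 genes of dividing cells all rose in root against floral stem (28.7% of all genes did), with a median of 1.43. These 6 summed to 117 to 154 CPM in root, 33.2 to 71.8 in floral stem and 13.96 to 29.95 in leaf. Their part in the organ differences of the 40S genes was not tested. With 3 plants a group, p-values set a difference against the spread between plants, estimated over all groups of a fit. Each Epi line is 1 family, so the spread between families is not covered.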

How the data were processed

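Total RNA was extracted from 3 plants per group, and TruSeq RNA libraries were sequenced. The authors deposited whole-number read counts per gene, made from trimmed reads aligned to TAIR10 with STAR 2.7.3a (edgeR 3.26.8 is also in the submitters' processing notes), with uniquely aligned reads counted by QoRTs. Reads assigned to no gene (0.681 to 6.17% of the totals) or to several (0.254 to 0.987%) were left out of library sizes. Totals were 18465252 to 90808615 counts per library. No 2 libraries of a group agreed within sampling noise (chi-square over degrees of freedom at least 13.6).

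Counts were filtered with filterByExpr, scaled by TMM and fitted with glmQLFit and glmQLFTest of edgeR 4.0.16 (limma 3.58.1, R 4.3.3), 1 fit per organ for the lines and 1 over 27 libraries for organs and interactions. DESeq2 1.42.0, RLE scaling, other filters, a replicate block, fits of the compared libraries alone and leaving out each plant were alternatives. Scripts were tested on simulated data and used Python 3.11.15, pandas 2.3.3, numpy 2.4.6 and matplotlib 3.10.9. Gene models were those of RefSeq TAIR10.1, in which 1873 of 1873 compared coordinates matched those of TAIR10 identifiers in the files. Members, lists and tests were chosen with earlier results of these data known. Genes were named by rule: called members, else the highest and lowest member of a comparison, up to 5 rises and falls per organ comparison, and the highest and lowest paralogs of families, of which those with large ratios are described. The promoters and other genes outside this rule were chosen after their values were seen.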

Additional observations from a re-analysis of the deposited data

How the results depend on the processing

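For Epi 8 against WT leaf, the number of members called lower changed from 25 to 38 with DESeq2, 5 with the replicate block and 5 with only the 6 libraries compared, and ranged from 0 to 28 when single plants were left out. All members tested were negative in each of these fits. Whether equal replicate numbers pair the plants is not settled. Correlations of deviations between equally numbered Epi 8 and WT leaf plants were 0.299, 0.0563 and 0.272, the first and last above the limit of 0.1 set for pairing. Between Epi 10 and WT leaf plants they were -0.0566, -0.0404 and -0.191. The main fit used no block, so its 25 calls assume unpaired plants. For Epi 8 against Epi 10 leaf, 0 calls became 12 with DESeq2 and ranged from 0 to 2 over left-out plants. The Epi 8 effect in leaf minus floral stem had 10 calls with DESeq2 and 0 to 40 over left-out plants. WT leaf against WT floral stem gave 15 calls with only the 6 WT libraries and 19 to 35 over left-out plants. The summed level of WT leaf over WT root was 0.477 after TMM scaling. Leaving out single plants, chosen for summed levels after seeing the data, moved WT leaf over WT floral stem between 0.875 and 1.38. The cause of these changes was not tested, except that fewer libraries leave fewer degrees of freedom. Apart from DESeq2, the shares of all genes called in the alternative fits are not given here.

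Single genes near 0 changed sign over left-out plants. AT4G33865 ranged from -0.39 to 0.23 (Epi 8 against WT floral stem), AT4G09800 from -0.12 to 0.21 (Epi 24 against WT floral stem), AT5G59240 from -0.13 to 0.0256 (Epi 8 against Epi 24 root) and AT5G62300 from -0.0158 to 0.20 (Epi 8 against Epi 10 leaf). AT3G09680, with few counts, ranged from -5.57 to 1.47 (Epi 8, leaf minus floral stem), -4.14 to 2.90 (Epi 8, floral stem minus root) and -3.62 to 0.52 (Epi 24, floral stem minus root). In 215 further pairs of a comparison and an alternative, the count of calls stayed within 1.5 times the value given. Many of these pairs set 0 calls against 0, where such a limit has no meaning, so their number does not measure stability. Over 72 WT mean shares, by family and organ, the largest move was 6.78 percentage points when raw counts were not divided by length. Shares of single plants could move more. In Epi 8 leaf plant 2, AT5G28060 (S24) had 7571 raw counts and AT3G04920 had 7626, so the leader there depended on the division by length. Floral stem and root libraries hold fewer counts in total than leaf. AT3G09680 had at most 2 counts in any floral stem plant and at most 30 in any leaf plant, against 50 to 196 in root. Low counts therefore limit this gene in floral stem and leaf.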
